A study of Mus musculus with 16 samples.

Results

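Proliferating cells copy their DNA in S phase and divide in mitosis, and both steps rest on proteins that are made in waves during the cell cycle. Origin licensing loads the Mcm helicase onto DNA, helicase activation by Cdc45 and the GINS complex opens the double helix, and polymerases, primase and the sliding clamp Pcna then copy it. In mitosis, Cdk1 with its cyclins, the Polo and Aurora kinases, spindle motors and centromere proteins separate the copied chromosomes. Gemcitabine (GEM) is a nucleoside analog that blocks DNA synthesis and acts mainly on cells in S phase, and agonist anti-CD40 antibody (Ab) activates antigen-presenting cells.

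The 45 genes described here were chosen by name for their part in mitosis or in DNA replication. Of them, 43 had a probe set that the array annotation assigns to that gene alone, among 18193 genes with such a probe set, and the brightest probe set over the 16 arrays stood for each gene. They comprised 23 mitosis genes and 20 replication genes. The cyclin gene Ccnb1 and the chromatin assembly gene Chaf1a had no probe set of their own and were not analysed here. The arrays measured whole subcutaneous flank tumors of PDA30364, a single mouse pancreatic tumor line, grown in C57BL/6-Ly5.1 mice aged 6 to 12 weeks.

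There were 4 arrays in each of 4 groups: GEM with control IgG, anti-CD40 Ab of the mIgG1 isotype with vehicle, GEM/anti-CD40 Ab, and control mice given vehicle with control IgG. Mice received GEM (120 mg/kg) or its vehicle 3 times (treatment days 1, 5, 12), and Ab or control IgG 4 times (treatment days 3, 4, 6, 14). Tumors were harvested 22 or 23 days after inoculation, a scale other than that of the treatment days, since treatment generally began when tumors were palpable. The titles of GEM replicates 3 and 4 share 1 animal number, so a single mouse may have given both. Values are log2 RMA expression values, a normalized probe brightness on which a difference of 1 is a doubling, and values of different probe sets are not compared as levels. Array medians lay between 5.60 and 5.66. Markers of tumor epithelium (mean log2 level 11.24 to 12.04) were high in every array. Skeletal muscle markers reached 12.44 in GEM/anti-CD40 Ab replicate 4 and skin keratinocyte markers 8.96 in control replicate 2 and 7.09 in anti-CD40 Ab replicate 2. Muscle markers were also the highest of their group in GEM replicate 4 (7.95) and control replicate 4 (7.56). In whole tumors, a smaller share of dividing cells and less RNA per dividing cell cannot be told apart.

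Promoter sequence was not used in the choice of genes. RefSeq promoter entries (GRCm38.p6) were at hand for 34 members, 18 mitosis and 16 replication genes, and the 250 bases before the start were searched on both strands for the CCAAT box (CCAAT), the cell cycle homology region CHR (TTTGAA) and E2F core letters (the motif TTCCCGC, the motif TTCGCGC, the motif TTGGCGC or the motif TTGCCGC). A match before any entered start of a gene counted, and 3 members had several starts. Some starts lie inside the annotated gene, among them those behind the E2F matches of Cdc6 and Fen1. E2F is a transcription factor family known for S phase genes, and CHR and CCAAT elements are known from genes of late cell cycle stages. CCAAT was found before 16 of 18 mitosis genes (88.9%) and 10 of 16 replication genes (62.5%), against 37.5% of all 27025 genes in the table. E2F core letters were found before 2 mitosis genes (11.1%) and 8 replication genes (50%), against 9.01% of all genes. CHR, with or without CCAAT, was found before 33.3% of the mitosis genes and 18.8% of the replication genes, against 18.3% of all genes. Every mitosis gene with CHR also held CCAAT. CHR together with CCAAT was found before 33.3% of the mitosis genes and 12.5% of the replication genes, against 6.45% of all genes. Over the 14452 genes that also have a probe set of their own, the shares were 39.4% for CCAAT, 13.3% for E2F core letters, 14.1% for CHR and 5.09% for CHR with CCAAT, so that the mitosis genes held E2F core letters no more often than those genes did. A match is a description of the sequence and not evidence of a binding site.

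The 180 bases directly before the annotated start follow for 3 mitosis genes and 3 replication genes, with the 3 kinds of match in capitals on either strand. Plk1, Nusap1 and Cdk1 were the mitosis genes closest to the rest of their class across tumors among those whose window ends at the annotated gene start. The others were chosen after their values or sequences were seen, Prim1 for its relation to the other replication genes, Mcm3 for the smallest p among the members and Mcm6 for its paired E2F letters. The places were chr7:122159255-122159434 (plus strand) for Plk1, chr10:69352913-69353092 (minus strand) for Cdk1, chr2:119618118-119618297 (plus strand) for Nusap1, chr10:128015035-128015214 (plus strand) for Prim1, chr1:20820313-20820492 (minus strand) for Mcm3 and chr1:128359706-128359885 (minus strand) for Mcm6.
Plk1: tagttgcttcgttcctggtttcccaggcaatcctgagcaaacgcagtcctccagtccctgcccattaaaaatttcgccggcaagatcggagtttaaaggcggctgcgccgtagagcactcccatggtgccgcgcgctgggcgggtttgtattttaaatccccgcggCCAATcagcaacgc
Cdk1: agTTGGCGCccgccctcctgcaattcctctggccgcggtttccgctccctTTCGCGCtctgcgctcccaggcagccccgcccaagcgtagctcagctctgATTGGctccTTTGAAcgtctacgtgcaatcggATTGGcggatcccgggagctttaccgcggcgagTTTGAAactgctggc
Nusap1: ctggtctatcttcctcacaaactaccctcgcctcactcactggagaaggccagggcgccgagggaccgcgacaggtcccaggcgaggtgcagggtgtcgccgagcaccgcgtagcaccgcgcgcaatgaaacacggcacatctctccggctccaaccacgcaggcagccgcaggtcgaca
Prim1: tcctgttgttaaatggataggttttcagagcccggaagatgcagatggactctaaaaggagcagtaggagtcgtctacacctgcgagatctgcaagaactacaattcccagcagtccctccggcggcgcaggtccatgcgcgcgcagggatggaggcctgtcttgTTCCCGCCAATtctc
Mcm3: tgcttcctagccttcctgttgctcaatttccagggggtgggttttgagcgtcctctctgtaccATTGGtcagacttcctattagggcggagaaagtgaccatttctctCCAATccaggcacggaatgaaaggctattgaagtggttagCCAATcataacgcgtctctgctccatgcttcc
Mcm6: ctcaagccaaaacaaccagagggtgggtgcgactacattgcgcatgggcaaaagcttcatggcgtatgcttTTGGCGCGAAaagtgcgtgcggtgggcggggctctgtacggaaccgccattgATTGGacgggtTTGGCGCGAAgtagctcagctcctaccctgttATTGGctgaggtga
In Cdk1, both CHR matches lay within 71 bases of the start, at 71 and 15 bases, each downstream of a reversed CCAAT box. Mcm6 held the 10 letters TTGGCGCGAA at 109 and 46 bases before the start, in which an E2F core on each strand overlaps the other. In Prim1, the E2F core lay 15 bases and the CCAAT box 9 bases before the start, and the letters of the pair overlap. Plk1 held 1 CCAAT box, at 14 bases, and Nusap1 held none of the letters searched.

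The first comparisons ask whether GEM, anti-CD40 Ab or both changed these genes against control. No member passed the test in any of them (limma, Benjamini-Hochberg adjusted p under 0.05 over 45037 probe sets). Over all 18193 genes, 0% passed with GEM, 0% with anti-CD40 Ab and 0.0275% with GEM/anti-CD40 Ab. The smallest adjusted p among members was 0.852 with GEM, 0.844 with anti-CD40 Ab and 0.504 with GEM/anti-CD40 Ab. The 3 comparisons share the 4 control arrays.

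With GEM against control, 40 of 43 members had a log2 change above 0, where 50.6% of all genes were below 0. The mean change was 0.15 over the mitosis genes and 0.10 over the replication genes, and the median was 0.13 over the members, against 0.00 over all genes. One member, the origin recognition gene Orc1, was higher at an unadjusted p under 0.05 and none was lower, where 3.34% of all genes were higher and 2.97% lower at that threshold. The spread of single-gene estimates was wide, with 95% intervals that reached from -0.39 to 0.81 over the mitosis genes and from -0.24 to 0.65 over the replication genes.

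Orc1, the large subunit of the origin recognition complex, had log2 values of 6.25, 6.17, 6.34 and 6.51 in GEM tumors, against 5.98, 5.97, 6.17 and 6.25 in control tumors. All 4 GEM values reached at least the second highest control value, and the groups overlapped. The log2 change was 0.225 ± 0.095 (SE), with an unadjusted p of 0.0409 and an adjusted p of 0.852 (limma). The licensing factor gene Cdt1 had 10.88, 10.97, 10.99 and 11.13 in GEM tumors, against 10.64, 10.77, 10.73 and 11.02 in control tumors. All GEM values of Cdt1 were above 3 of the 4 control values, and control replicate 4 lay among them. The change of Cdt1 was 0.203 ± 0.092 (adjusted p = 0.852, limma).

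Among mitosis genes, the smallest p with GEM belonged to the kinesins Kif20a and Kif23, motors that act in the late spindle and at cell separation. Kif20a had 9.23, 9.13, 9.20 and 9.56 in GEM tumors, against 8.73, 8.75, 8.98 and 9.55 in control tumors. The log2 change was 0.278 ± 0.179 (adjusted p = 0.864, limma). Kif23 had 10.30, 10.17, 10.26 and 10.35 in GEM tumors, against 9.78, 9.91, 10.12 and 10.46 in control tumors, a change of 0.203 ± 0.133 (adjusted p = 0.867, limma). In both genes 3 control tumors were below all GEM tumors and control replicate 4 was at or above most of them. Without control replicate 4 the changes were 0.46 for Kif20a and 0.33 for Kif23, without GEM replicate 4 that of Kif20a was 0.18, and without control replicate 1 that of Kif23 was 0.11.

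Control replicate 4 bore on the GEM comparison as a whole. It had the highest value of all 16 arrays for 18 of 23 mitosis genes and 9 of 20 replication genes. Without it, the log2 change was above 0 for 43 of 43 members, 28 of them at an unadjusted p under 0.05 where 4.79% of all genes were higher at that threshold, and the mean change was 0.34 over mitosis genes and 0.18 over replication genes. No member passed the adjusted test without it either, the smallest adjusted p being 0.469 (limma). This array was picked for its high values in these same genes, and the members move together, so the 28 are not independent support. Without control replicate 1, 33 members were above 0, and without GEM replicate 4, 36 were. In neither case was a member at an unadjusted p under 0.05, where 2.71% and 3.16% of all genes were higher.

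**Figure D1:**
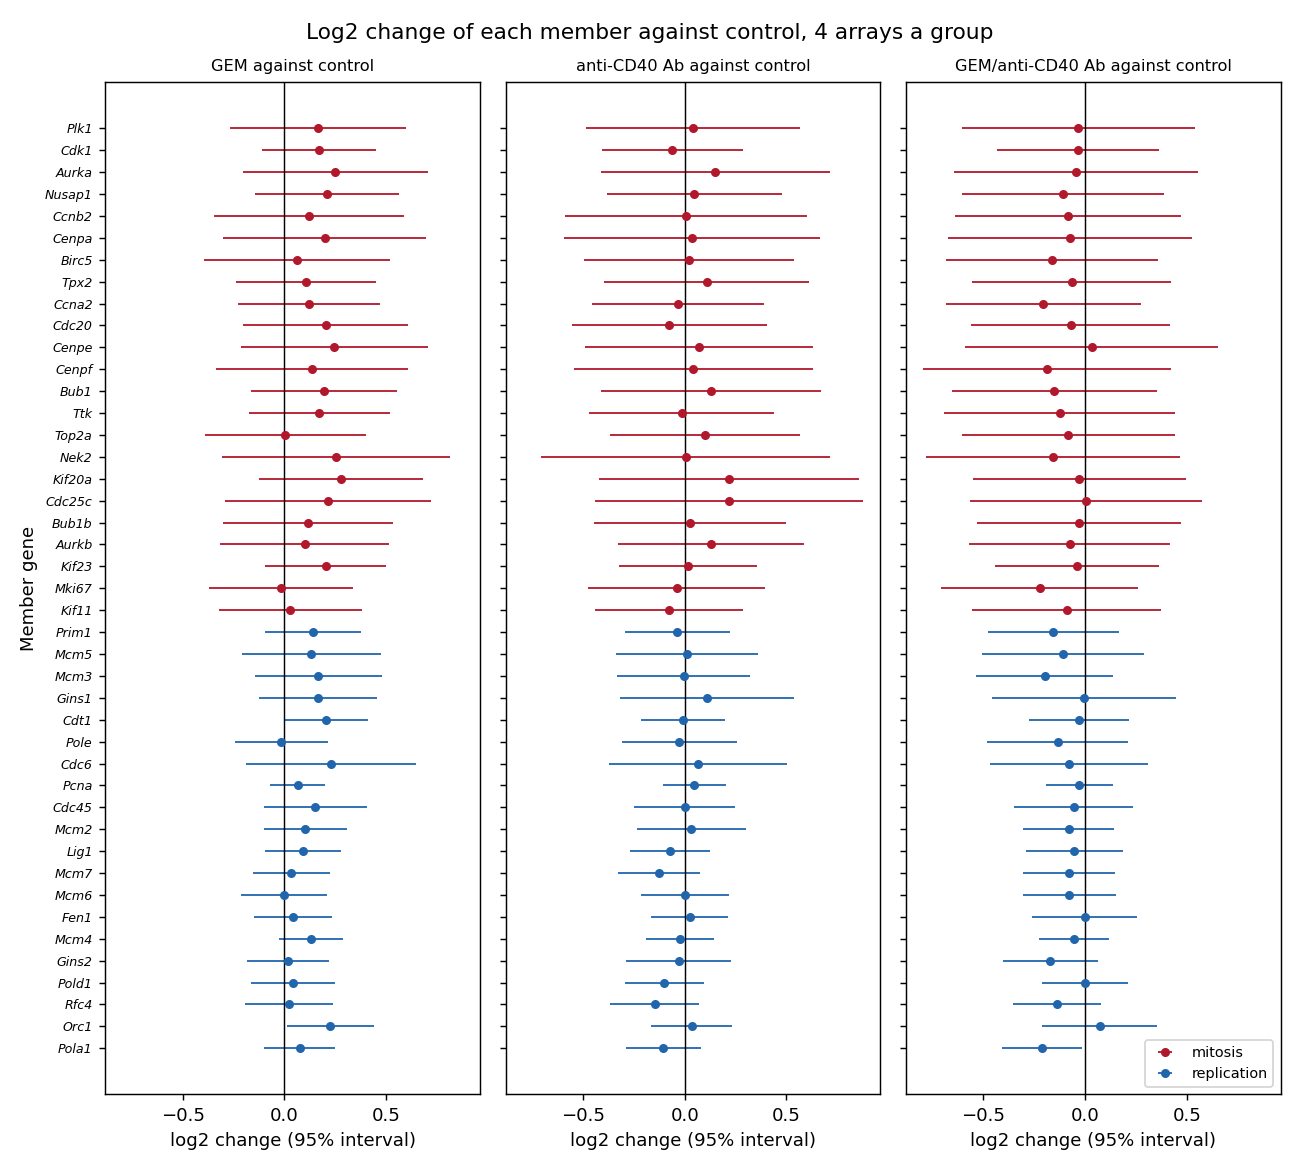
Log2 change of each of the 43 members (rows) in GEM, anti-CD40 Ab and GEM/anti-CD40 Ab tumors against control, with mitosis genes in red and replication genes in blue; bars are 95% intervals from limma on 4 arrays a group. Nearly all intervals hold 0, and the intervals of most mitosis genes are wider than those of most replication genes, with exceptions such as Cdc6 and Gins1.

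With anti-CD40 Ab against control, the members lay on both sides of 0, with 24 above and 17 below, where 55.7% of all genes were below 0. The mean change was 0.05 over the mitosis genes and -0.02 over the replication genes, and the median was 0.01 over the members, against -0.02 over all genes. No member was higher or lower at an unadjusted p under 0.05, where 3.52% of all genes were higher and 3.74% lower. The smallest p among replication genes belonged to Rfc4, a subunit of the clamp loader, with 8.89, 9.06, 8.94 and 9.16 in anti-CD40 Ab tumors, against 8.99, 9.07, 9.23 and 9.35 in control tumors. The groups overlapped, and the change was -0.148 ± 0.097 (adjusted p = 0.844, limma). The helicase gene Mcm7 had 11.87, 11.82, 11.76 and 11.94 in anti-CD40 Ab tumors, against 11.90, 11.94, 11.85 and 12.21 in control tumors, a change of -0.128 ± 0.089 (adjusted p = 0.848, limma). Without control replicate 4 the changes were -0.08 for Rfc4 and -0.05 for Mcm7.

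The mitosis genes with the smallest p under anti-CD40 Ab were Kif20a and Cdc25c, which codes for a phosphatase that switches Cdk1 on. Cdc25c had 6.13, 6.22, 7.36 and 6.55 in anti-CD40 Ab tumors, against 5.94, 6.09, 6.41 and 6.95 in control tumors. Kif20a had 8.76, 8.87, 10.04 and 9.21 in anti-CD40 Ab tumors. Both changes were 0.22, with SE of 0.29 for Cdc25c and 0.28 for Kif20a, and replicate 3 was the highest of the 16 arrays in both genes. Without that replicate the changes were -0.05 for Cdc25c and -0.06 for Kif20a, and leaving out any other single tumor gave 0.08 to 0.42 for Cdc25c and 0.13 to 0.40 for Kif20a.

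With GEM/anti-CD40 Ab against control, 39 members had a change below 0 and 3 above 0, where 54.7% of all genes were below 0. The mean change was -0.09 over the mitosis genes and -0.08 over the replication genes, and the median was -0.08 over the members, against -0.02 over all genes. One member, Pola1, was lower at an unadjusted p under 0.05 and none was higher, where 5.86% of all genes were higher and 5.35% lower. The count of signs rested on single tumors: 12 members were below 0 without GEM/anti-CD40 Ab replicate 3, and 9 without control replicate 4.

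Pola1 codes for the catalytic subunit of polymerase alpha, which works with primase to start new DNA strands. It had 8.80, 8.94, 8.64 and 8.72 in GEM/anti-CD40 Ab tumors, against 8.97, 8.84, 9.0 and 9.13 in control tumors. The groups overlapped through GEM/anti-CD40 Ab replicate 2 and control replicate 2. The change was -0.21 ± 0.09 (unadjusted p = 0.0395, adjusted p = 0.504, limma). Gins2, a subunit of the GINS complex, had 9.17, 9.21, 8.87 and 8.97 in GEM/anti-CD40 Ab tumors, against 9.02, 9.23, 9.28 and 9.37 in control tumors, and its change was -0.17 ± 0.10 (adjusted p = 0.623, limma), or -0.11 without GEM/anti-CD40 Ab replicate 3.

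Mki67, whose product is the proliferation marker Ki-67, had 10.62, 10.73, 9.91 and 10.67 in GEM/anti-CD40 Ab tumors, against 10.62, 10.51, 10.50 and 11.19 in control tumors. GEM/anti-CD40 Ab replicate 3 was the lowest and control replicate 4 the highest of these 8 arrays, and the other 6 lay close together. The change was -0.22 ± 0.21 (adjusted p = 0.757, limma), and it was -0.03 without GEM/anti-CD40 Ab replicate 3 and -0.06 without control replicate 4. The S and G2 phase cyclin Ccna2 had 10.70, 10.93, 10.06 and 10.62 in GEM/anti-CD40 Ab tumors, against 10.54, 10.61, 10.70 and 11.28 in control tumors. The same tumors were lowest and highest, and the change was -0.205 ± 0.212 (adjusted p = 0.773, limma). Without GEM/anti-CD40 Ab replicate 3 it was -0.03, and without control replicate 4 it was -0.04.

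The next comparisons ask what each agent added to the other. Between GEM/anti-CD40 Ab and GEM tumors no member passed the adjusted test, nor did any gene (0% of 18193), but all 43 members were lower in GEM/anti-CD40 Ab tumors, where 56.2% of all genes were. The mean change was -0.24 over the mitosis genes and -0.18 over the replication genes, and the median was -0.21 over the members, against -0.02 over all genes. At an unadjusted p under 0.05, 7 members were lower and none higher, where 6.1% of all genes were lower and 6.67% higher. Of these 7, 6 were replication genes (Mcm2, Mcm3, Mcm4, Cdt1, Pola1 and Prim1), of which 4 act in origin licensing, and 1 was the mitotic kinase gene Nek2. The count does not rank the classes, as the mitosis genes had the larger mean change and a wider within-group SD (median 0.34 against 0.14).

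Mcm3, a subunit of the helicase, had 9.55, 9.76, 9.34 and 9.52 in GEM/anti-CD40 Ab tumors, against 9.77, 9.90, 9.87 and 10.09 in GEM tumors. Every GEM/anti-CD40 Ab tumor was below every GEM tumor. The change was -0.365 ± 0.101 (unadjusted p = 0.00542, adjusted p = 0.257, limma), with a 95% interval from -0.59 to -0.14. Pola1 had 8.97, 9.11, 9.16 and 9.0 in GEM tumors, all above the 4 GEM/anti-CD40 Ab values given before, and its change was -0.285 ± 0.080 (adjusted p = 0.261, limma).

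Nek2, a kinase of the centrosome cycle, had 8.61, 8.68, 8.03 and 8.70 in GEM/anti-CD40 Ab tumors, against 8.87, 8.75, 8.84 and 9.20 in GEM tumors. The groups did not overlap, and 3 of the GEM/anti-CD40 Ab tumors lay just under the lowest GEM tumor. The change was -0.41 ± 0.16 (adjusted p = 0.377, limma). Mcm3, Pola1 and Nek2 were the members whose groups did not overlap, 3 of 43, and 3.46% of all genes were lower in every GEM/anti-CD40 Ab tumor than in every GEM tumor. Ccna2 had 10.83, 10.79, 10.89 and 11.10 in GEM tumors and a change of -0.325 ± 0.167 (adjusted p = 0.500, limma). Without GEM/anti-CD40 Ab replicate 3 the changes were -0.25 for Nek2 and -0.15 for Ccna2.

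Without GEM/anti-CD40 Ab replicate 3, 34 of 43 members stayed lower than in GEM tumors. Of these, 3 were at an unadjusted p under 0.05, where 7.97% of all genes were lower, so the count was near that share. The mean change was -0.06 over mitosis genes and -0.10 over replication genes. The muscle-rich replicate 4 had the opposite bearing: without it all 43 members were lower, with means of -0.29 and -0.19. The part of muscle tissue in the comparison was not tested.

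Between GEM/anti-CD40 Ab and anti-CD40 Ab tumors, 36 members were lower and 7 higher, where 47.7% of all genes were lower, and 0% of genes and no member passed the adjusted test. No member reached an unadjusted p under 0.05, where 2.19% of all genes were higher and 1.41% lower. The signs rested on single tumors: without GEM/anti-CD40 Ab replicate 3, 16 members were lower and 26 higher. Without anti-CD40 Ab replicate 3, 22 were lower and 20 higher. The interaction term of the fit on all 16 arrays, which tests whether the agents' effects are additive, gave a value below 0 for 41 members, where 47.6% of all genes were below 0, and again no member and 0% of all genes passed. No member was past an unadjusted p under 0.05 there, with 2.81% of all genes higher and 2.3% lower. Signs of the interaction were not recounted with single tumors left out. The 95% intervals of the interaction reached from -1.31 to 0.51 over the mitosis genes and from -0.98 to 0.32 over the replication genes, which is the precision that 4 arrays a group gave.

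Tumors of a single group differed widely in the mitosis genes. The median share of a gene's variation over the 16 arrays that lay within groups was 90.2% for the mitosis genes and 77.7% for the replication genes, against 78.0% for all genes, so that the replication genes were close to the array as a whole. The within-group SD had a median of 0.34 over the mitosis genes and 0.14 over the replication genes, against 0.13 over all genes, and the mitosis median was above that of 91.5% of all genes.

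**Figure D2:**
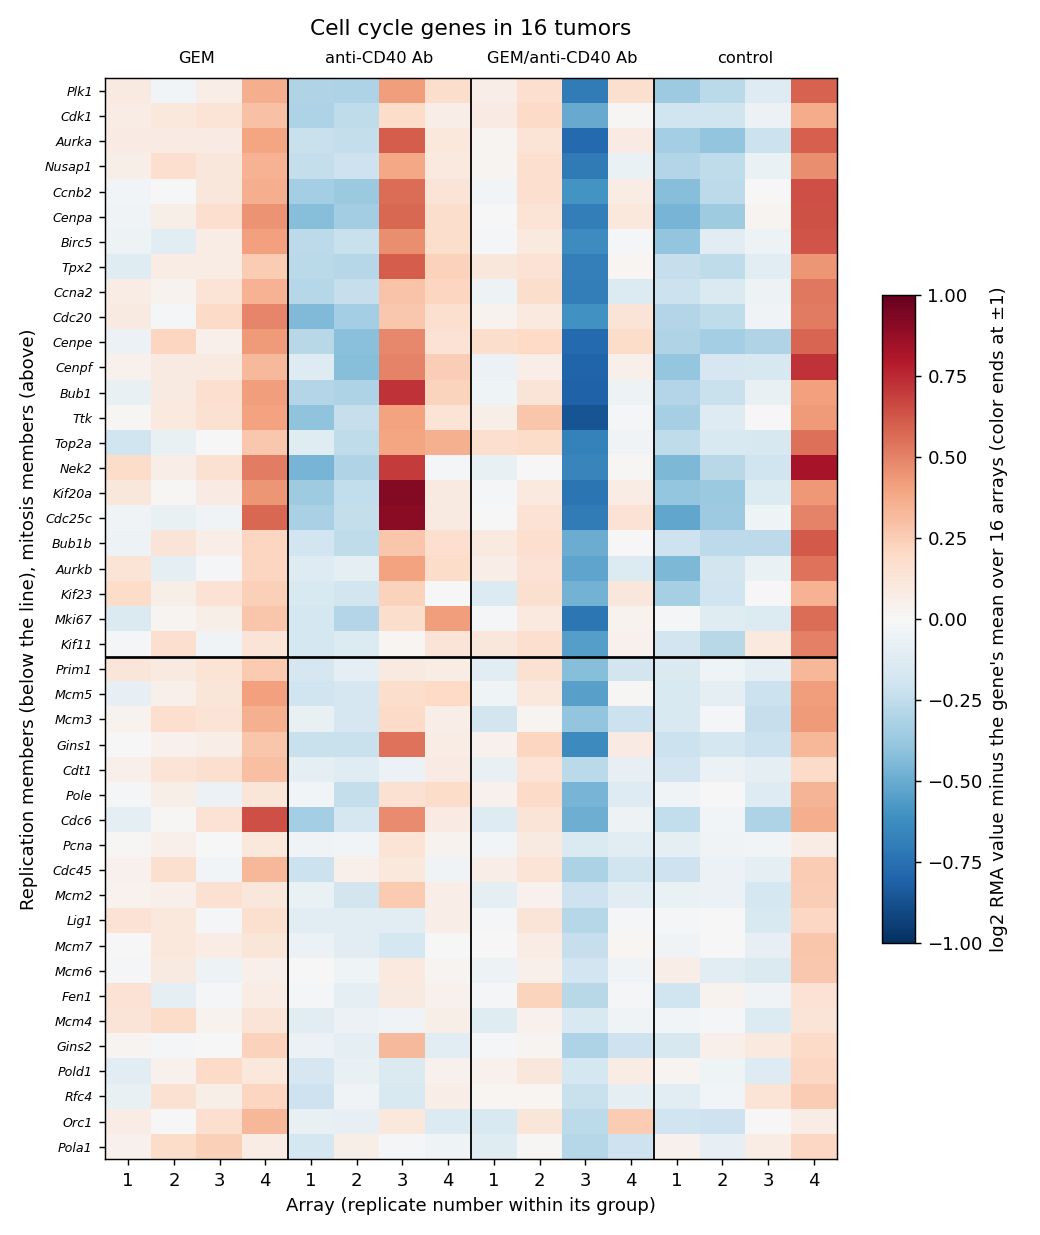
Log2 value of each of the 43 members (rows) in each of the 16 tumors (columns, by group), after subtracting the gene's mean over all arrays; mitosis genes are above the line and replication genes below it, each sorted by their correlation with the rest of their class. Columns are mostly of a single color, blue in GEM/anti-CD40 Ab replicate 3 and red in control replicate 4, with paler colors in the replication genes.

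A score was taken for each class as the mean over its genes after each gene was centred on its mean over the 16 arrays. The mitosis score was 0.01, 0.05, 0.09 and 0.35 in GEM tumors, -0.27, -0.27, 0.46 and 0.16 in anti-CD40 Ab tumors, 0.03, 0.14, -0.67 and 0.04 in GEM/anti-CD40 Ab tumors, and -0.32, -0.24, -0.09 and 0.54 in control tumors. The replication score was 0.02, 0.08, 0.08 and 0.22 in GEM tumors, -0.12, -0.10, 0.10 and 0.04 in anti-CD40 Ab tumors, -0.05, 0.10, -0.32 and -0.06 in GEM/anti-CD40 Ab tumors, and -0.11, -0.05, -0.10 and 0.25 in control tumors. Both scores were lowest in GEM/anti-CD40 Ab replicate 3 and highest in control replicate 4, and all 4 groups overlapped.

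From the lowest to the highest tumor the mitosis score spanned 1.21 log2 units, or 2.31-fold, and the replication score 0.56 units, or 1.48-fold. GEM/anti-CD40 Ab replicate 3 had the lowest value of all 16 arrays for 23 of 23 mitosis genes and 20 of 20 replication genes. GEM tumors varied least, with an SD of the mitosis score of 0.16, against 0.36 in anti-CD40 Ab, 0.37 in GEM/anti-CD40 Ab and 0.39 in control tumors. Over all genes the median SD was 0.10 in GEM tumors and 0.12 in control tumors. The difference in spread was not tested, and GEM replicates 3 and 4 may come from a single mouse.

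**Figure D3:**
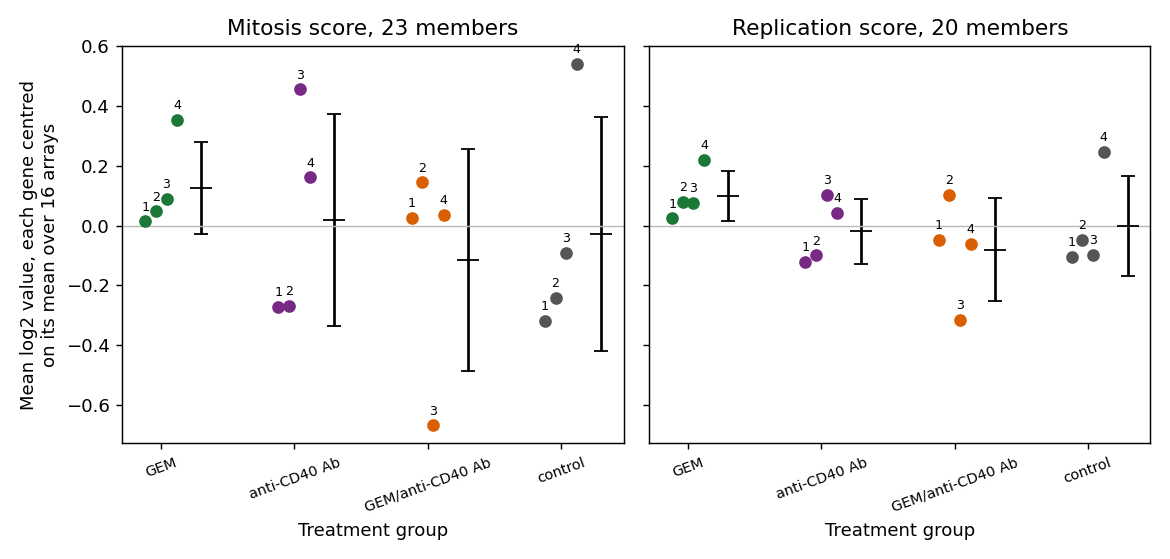
Mitosis score (left) and replication score (right) of each tumor, in log2 units relative to the mean over 16 arrays, by treatment group; points are tumors with their replicate number, and the bar beside them is the group mean ± SD (n = 4). All groups overlap, GEM tumors lie closest together, and GEM/anti-CD40 Ab replicate 3 and control replicate 4 mark the ends of both scores.

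The functional sets within each class differed in amplitude. Among mitosis genes, the 5 cyclins, Cdk1 and their switches spanned 1.13 log2 units over the 16 tumors, the 8 mitotic kinases and spindle checkpoint genes 1.26, the 5 spindle motors and assembly factors 1.07, the 3 centromere protein genes 1.40, and Mki67 with Top2a 1.25. Among replication genes, the 9 origin licensing genes spanned 0.58, the 3 helicase activation genes 0.74, the 6 polymerase, primase and clamp genes 0.52, and Fen1 and Lig1, which trim and join Okazaki fragments, 0.46. In every set GEM/anti-CD40 Ab replicate 3 was the lowest tumor, and every mitosis set spanned more than every replication set.

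Single genes varied over the tumors at different amplitudes. Plk1, the Polo-like kinase that drives mitotic entry and spindle assembly, had 8.82, 8.70, 8.80 and 9.09 in GEM tumors, 8.43, 8.42, 9.15 and 8.91 in anti-CD40 Ab tumors, 8.80, 8.90, 8.03 and 8.89 in GEM/anti-CD40 Ab tumors, and 8.37, 8.46, 8.60 and 9.32 in control tumors. Top2a, the topoisomerase that untangles chromosomes, had 10.32, 10.45, 10.53 and 10.79 in GEM tumors, 10.40, 10.27, 10.92 and 10.88 in anti-CD40 Ab tumors, 10.69, 10.71, 9.85 and 10.49 in GEM/anti-CD40 Ab tumors, and 10.27, 10.37, 10.36 and 11.07 in control tumors. In both genes replicates 1 and 2 of anti-CD40 Ab were low and replicates 3 and 4 high. Mki67 had 10.49, 10.66, 10.69 and 10.91 in GEM tumors and 10.46, 10.34, 10.81 and 11.05 in anti-CD40 Ab tumors, where replicates 3 and 4 were again above replicates 1 and 2.

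Of the replication genes, Mcm2, a helicase subunit and a common proliferation marker, had 10.21, 10.23, 10.33 and 10.29 in GEM tumors, 10.11, 9.99, 10.44 and 10.24 in anti-CD40 Ab tumors, 10.08, 10.22, 9.97 and 10.06 in GEM/anti-CD40 Ab tumors, and 10.11, 10.12, 10.00 and 10.42 in control tumors. Pcna had 12.19, 12.23, 12.18 and 12.28 in GEM tumors, 12.14, 12.15, 12.31 and 12.21 in anti-CD40 Ab tumors, 12.15, 12.27, 12.03 and 12.06 in GEM/anti-CD40 Ab tumors, and 12.08, 12.14, 12.15 and 12.25 in control tumors. With a within-group SD of 0.08, Pcna was the least variable member. The most variable replication gene was Cdc6, which loads the helicase at origins and had an SD of 0.31, with 7.01, 7.12, 7.25 and 7.75 in GEM tumors, 6.77, 6.94, 7.58 and 7.19 in anti-CD40 Ab tumors, 6.98, 7.24, 6.62 and 7.06 in GEM/anti-CD40 Ab tumors, and 6.86, 7.08, 6.80 and 7.47 in control tumors. The mitosis genes with the highest and lowest SD were Cdc25c (0.44) and Kif23 (0.23).

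**Figure D4:**
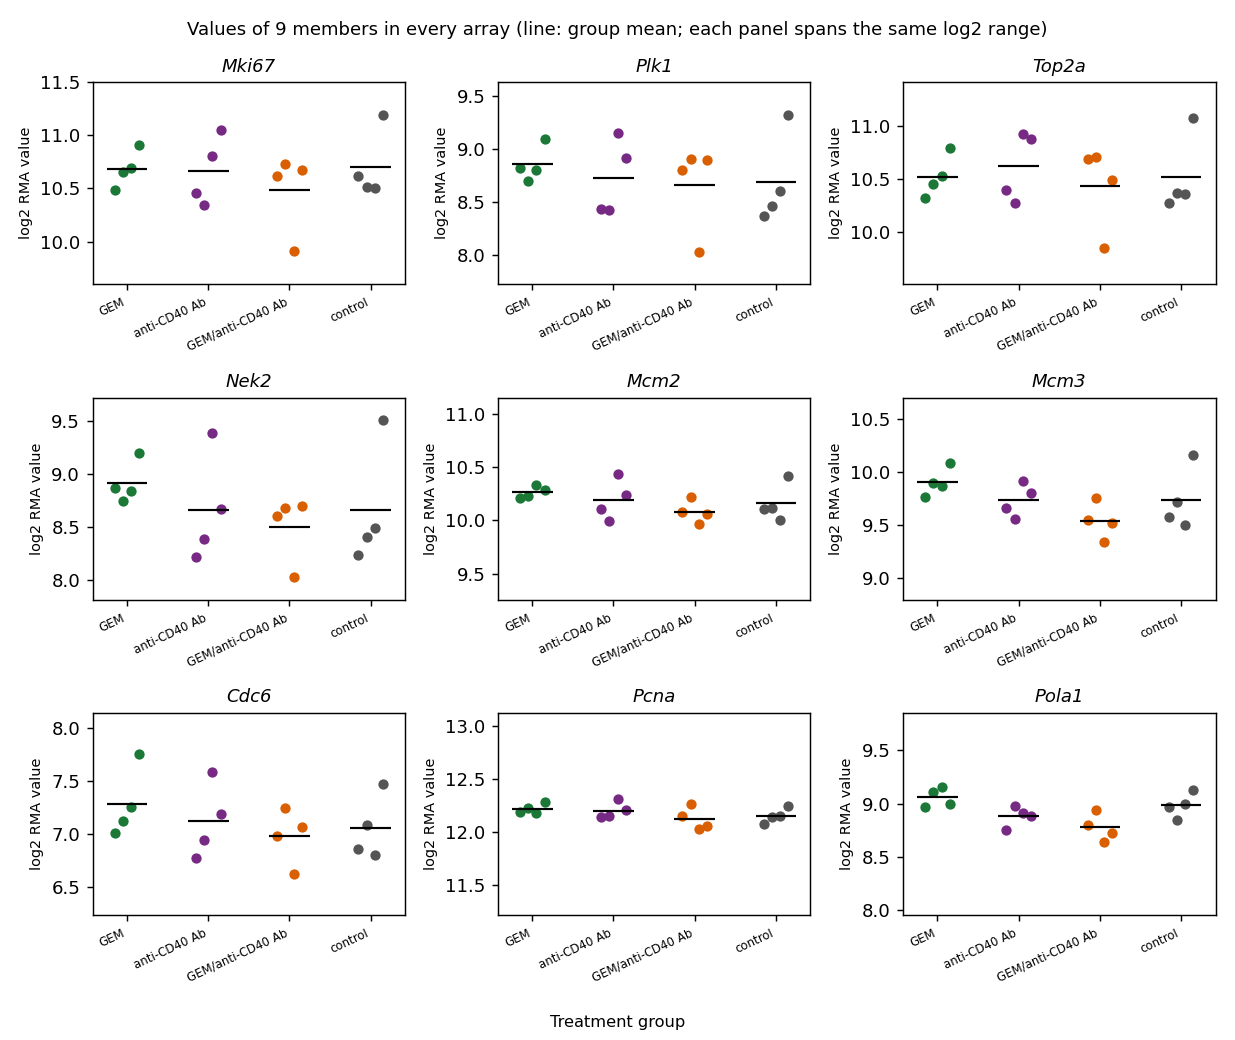
Log2 RMA value of 9 members in every tumor, by treatment group; points are tumors, lines are group means, and each panel spans the same log2 range. Plk1, Nek2 and Cdc6 spread over most of their panel, while the 16 values of Pcna lie between 12.03 and 12.31.

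Members moved together from tumor to tumor. With group means removed, the median Pearson r over the 16 arrays was 0.94 for the 253 pairs of mitosis genes (lowest 0.74, highest 0.99), 0.69 for the 190 pairs of replication genes (0.18 to 0.92) and 0.77 for the 460 pairs across the classes (0.43 to 0.98). Over all pairs of genes it was 0.01, and 6.42% of pairs had an r of 0.5 or more. These correlations are descriptions over arrays that share the same scale. The first principal component held 89.7% of the members' variance, against 26.7% for all genes. Among the 52 further probe sets of the members, 40 had an r of at least 0.5 with the brightest probe set of their gene (median 0.86) and 4 were below 0.

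Plk1 was the mitosis gene closest to the rest of its class (r = 0.99), and Kif11, the motor that pushes spindle poles apart, the farthest (r = 0.87). Among replication genes, r with the rest of the class was 0.97 for Prim1, the catalytic primase subunit, and 0.96 for the helicase gene Mcm5, against 0.58 for Pola1 and 0.63 for Orc1. Pola1 and Orc1 were also the members with an unadjusted p under 0.05 against control. Amplitude within the class differed too. Per unit of the other replication genes' mean, Gins1 changed by 2.11, Cdc6 by 2.11 and Mcm5 by 1.84, but Mcm4 by 0.43, Pola1 by 0.44 and Pcna by 0.49.

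Replication and mitosis scores had an r of 0.95 (Spearman rho 0.95) over the 16 arrays with group means removed, and the replication score changed by 0.40 per unit of the mitosis score. Without the 2 arrays farthest from the median, GEM/anti-CD40 Ab replicate 3 and control replicate 4, r was 0.91 and the slope 0.37. The replication score minus the mitosis score was 0.35 in GEM/anti-CD40 Ab replicate 3, -0.35 in anti-CD40 Ab replicate 3 and -0.29 in control replicate 4. Its mean difference from control was -0.05 with GEM, -0.06 with anti-CD40 Ab and 0.01 with GEM/anti-CD40 Ab, all within the spread between tumors of a group.

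**Figure D5:**
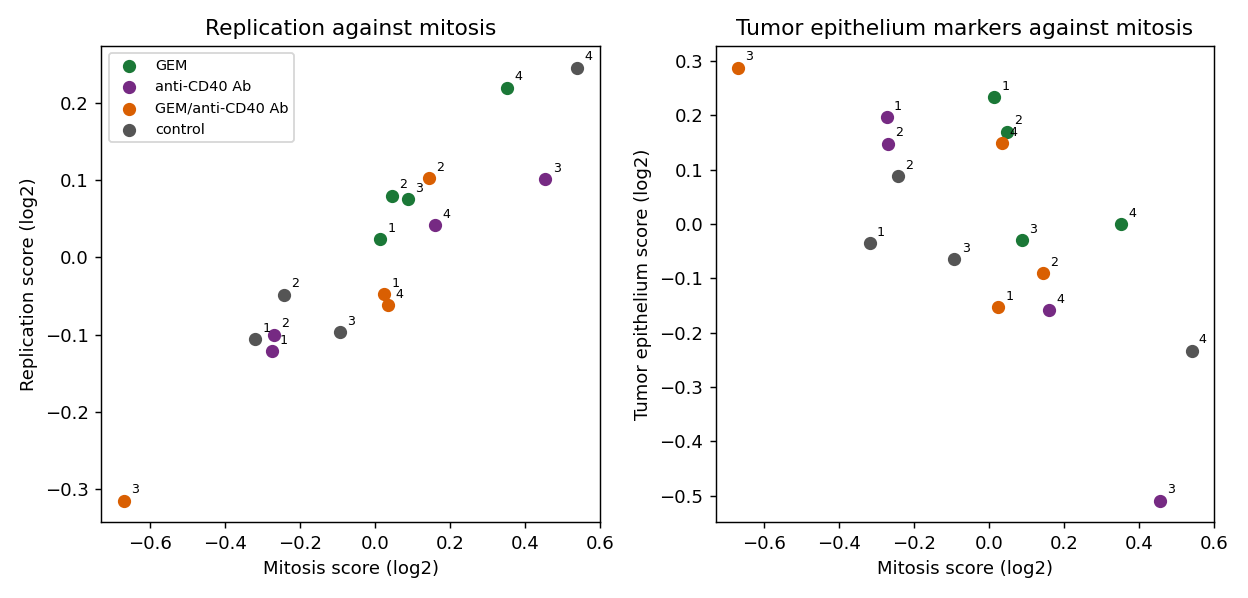
Replication score (left) and tumor epithelium score (right) against mitosis score, all in log2 units relative to the mean over 16 arrays; each point is a tumor with its replicate number, colored by group. Replication follows mitosis along a line of shallow slope, and the epithelium score falls across the mitosis score, with anti-CD40 Ab replicate 3 at the bottom right and GEM/anti-CD40 Ab replicate 3 at the top left.

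Other cell cycle genes followed the members. A list of 34 other mitosis genes had an r of 0.997 with the mitosis score, group means removed, 31 other replication genes 0.95, 7 nucleotide synthesis genes 0.91 and 14 G1 cyclins, Cdks and E2f factors 0.89. The 10 Cdk inhibitor and Rb family genes, which restrain the cycle, also had a positive r of 0.79 (0.78 without the 2 farthest arrays). The genes outside the members with the highest r with the mitosis score were Hmmr, a spindle-associated hyaluronan receptor (0.995), Kif18b, Diaph3, Tacc3, Kif2c, Cdca2, Knl1, Cep55, Prc1 and Aspm (0.98), several of them spindle, kinetochore or cytokinesis genes. With the replication score they were the kinase gene Melk (0.993), Cks2, Aspm, Kntc1, Rpa1, Kif4, Mxd3, Kifc1, Zwilch and Smc4 (0.955), of which Rpa1, the single-strand DNA binding protein, is a replication factor. Of the 50 genes closest to the mitosis score, 22 were in the lists of other mitosis or replication genes.

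The genes with the lowest r with the mitosis score were the ribonuclease gene Rnase4 (-0.951), Atp10b (-0.943), the cadherin gene Cdh13 (-0.942), Sfxn3 and Pcdhb9. With the replication score they were Atp10b (-0.950), Mal, Rabac1, Fbxo44 and Nucb2. Mal, a membrane proteolipid of epithelial cells, had 11.64, 11.52, 11.04 and 10.75 in GEM tumors, 11.83, 11.54, 10.30 and 10.82 in anti-CD40 Ab tumors, 10.92, 10.63, 11.93 and 10.95 in GEM/anti-CD40 Ab tumors, and 11.22, 10.62, 11.24 and 9.01 in control tumors. It was highest in GEM/anti-CD40 Ab replicate 3 and lowest in control replicate 4, the reverse of the mitosis genes.

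The summed markers of tumor epithelium (10 genes) had an r of -0.82 with the mitosis score (rho -0.84), and -0.83 without the 2 farthest arrays. All 10 had a negative r, from -0.31 for Sox9 to -0.80 for Muc1, and the tight junction gene Cldn4 had -0.79 and the adhesion gene Epcam -0.75. Over the 16 tumors the log2 value of Epcam ran from 10.5 to 12.34, that of Cldn4 from 6.93 to 9.25, that of Cldn7 from 10.16 to 11.75 and that of Krt7 from 11.8 to 12.75. The keratin Krt8 ran from 13.52 to 13.77, near the top of the array's scale. Macrophage markers had an r of 0.62, which was 0.475 without the 2 farthest arrays, fibroblast markers 0.43, skeletal muscle markers 0.36, interferon gamma response genes 0.35, endothelial markers 0.27, T cell markers 0.20, granulocytic markers 0.14 and skin keratinocyte markers -0.31. Without the 2 farthest arrays r was 0.43 for fibroblast, 0.20 for skeletal muscle, 0.04 for interferon gamma response, 0.19 for endothelial, -0.02 for T cell, 0.00 for granulocytic and -0.25 for skin keratinocyte genes, so that the interferon gamma, T cell and granulocytic values rested on those 2 tumors. These values are with group means removed. Over the 16 arrays with group means kept, r was 0.27 for macrophage, 0.02 for interferon gamma response and 0.41 for fibroblast genes. Whether the cell makeup of the tumors bears on the mitosis score was not tested.

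Genes that feed or restrain the cycle also gave no adjusted call in any comparison. Of 34 other mitosis genes, 33 were above 0 with GEM, 19 with anti-CD40 Ab and 7 with GEM/anti-CD40 Ab against control, with median log2 changes of 0.13, 0.01 and -0.11. Of 31 other replication genes, 23, 15 and 10 were above 0 in the same 3 comparisons. None of 7 nucleotide synthesis genes was above 0 with GEM/anti-CD40 Ab. Tyms, the thymidylate synthase gene, had the smallest p of these 7 in that comparison. It had 4.37, 4.47, 4.41 and 4.41 in GEM/anti-CD40 Ab tumors, against 4.53, 4.54, 4.64 and 4.68 in control tumors, and its change was -0.18 ± 0.06 (adjusted p = 0.458, limma). The groups did not overlap, but all these values lay below the array medians. Pold3, a subunit of polymerase delta, had 8.35, 8.37, 8.40 and 8.38 in GEM tumors, against 8.11, 7.90, 8.21 and 8.30 in control tumors, and the groups did not overlap. The change was 0.245 ± 0.085 (adjusted p = 0.802, limma). Pold3 had the smallest p of the 31 other replication genes with GEM. Since Tyms and Pold3 were picked by smallest p, groups that do not overlap add no separate support.

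Pttg1 codes for securin, which keeps sister chromatids together until anaphase, and had 10.89, 11.01, 11.06 and 10.86 in GEM tumors and 10.99, 10.83, 10.93 and 11.02 in GEM/anti-CD40 Ab tumors, against 10.82, 10.80, 10.70 and 10.84 in control tumors. Every GEM tumor was above every control tumor, while the GEM/anti-CD40 Ab and control groups overlapped. The changes were 0.165 ± 0.067 with GEM (adjusted p = 0.852, limma) and 0.15 ± 0.07 with GEM/anti-CD40 Ab (adjusted p = 0.512, limma). Pttg1 was picked for the smallest p of the 34 other mitosis genes in both comparisons, so groups that do not overlap add no separate support.

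The Cdk inhibitor gene Cdkn1a (p21), which holds cells back before S phase and is a target of p53, had 8.64, 8.76, 8.85 and 8.81 in GEM tumors, 9.16, 9.21, 9.31 and 9.64 in anti-CD40 Ab tumors, 10.17, 9.63, 9.39 and 9.57 in GEM/anti-CD40 Ab tumors, and 9.52, 9.17, 9.04 and 8.66 in control tumors. Every GEM/anti-CD40 Ab tumor was above every GEM tumor. The log2 change was 0.59 ± 0.21 for GEM/anti-CD40 Ab against control (adjusted p = 0.472, limma) and 0.93 ± 0.15 against GEM (unadjusted p = 0.000153, adjusted p = 0.197, limma). GEM/anti-CD40 Ab replicate 3, the tumor with the lowest mitosis score, had the lowest Cdkn1a value of its group. Whether Cdkn1a bears on the mitosis score was not tested. Of the 10 Cdk inhibitor and Rb family genes, 5 were above 0 in each of the 3 comparisons with control. With GEM against control, Cdkn1a was at -0.33 and Cdkn2a at 0.22 (adjusted p = 0.852 and 0.806, limma). Cdkn2b was at -0.18 with anti-CD40 Ab and -0.18 with GEM/anti-CD40 Ab against control (adjusted p = 0.807 and 0.494, limma). The higher Cdkn1a value with GEM/anti-CD40 Ab was thus not shared by the list.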

How the data were processed

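The deposited table held log2 expression values that the authors made with RMA, which corrects background, quantile-normalizes and summarizes the probes of each probe set of an Affymetrix mouse expression array. The labels name no RMA version or settings. The table had 45101 probe sets, and dropping the array's 64 control probe sets left 45037. Gene names came from the platform annotation, in which 34945 probe sets have 1 symbol, 932 several and 9160 none. Each gene was represented by its brightest probe set annotated to it alone.

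Pairs of groups (8 arrays) and the interaction (16 arrays) were tested with limma 3.58.1 in R 4.3.3, with Benjamini-Hochberg adjustment over all probe sets at 0.05. The code was tested on simulated data. Python 3.11.15 served for scores and figures. P-values measure the spread between these tumors, and array number limits precision. Values in every array are given for anchor genes, for the 2 mitosis and 2 replication members with the smallest p in each control comparison and in GEM/anti-CD40 Ab against GEM, and for the members with the highest or lowest SD. Outside the members, Tyms, Pold3, Pttg1 and Cdkn1a had the smallest p of their list in a comparison with control. Alternatives covered scaling, probe set choice, dim probe sets, variance prior, array weights, a joint fit, the replicate block and leaving out arrays. Members and lists were chosen with earlier results of these data known.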

Additional observations from a re-analysis of the deposited data

Results flagged for a closer look

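In 184 tests for a lone array within a group of 4, 23 values stood apart, meaning that the gap to the nearest other array exceeded Dixon's critical share of the group's range, where chance alone gives about 9.2. Members move together, so these tests are not independent.

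In GEM/anti-CD40 Ab replicate 3 the mitosis score was -0.668, against 0.025 to 0.144 in the other 3 tumors of its group, and the replication score minus the mitosis score was 0.353. The log2 values that stood apart in that tumor were 10.28 for Cdc20, 8.03 for Plk1, 8.16 for Aurka, 9.16 for Birc5, 8.03 for Nek2, 8.39 for Kif20a, 8.46 for Tpx2, 9.33 for Cenpa, 8.28 for Cenpe, 8.23 for Cenpf and 9.91 for Mki67, all below the rest of the group. Control replicate 4 stood above its group with a replication score of 0.246 and log2 values of 9.62 for Bub1b, 9.64 for Cenpe, 11.07 for Top2a and 8.90 for Gins1. GEM replicate 4 stood above its group for Cdc25c (7.03), Aurka (9.33) and Gins2 (9.41). Anti-CD40 Ab replicate 3 stood above its group for Gins2 (9.5), and anti-CD40 Ab replicate 4 for Lig1 (10.01).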

How the results depend on the processing

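The count of members past the adjusted threshold was 0 in all 162 values obtained over the alternatives and the 6 comparisons, the replicate block and the average of GEM replicates 3 and 4 included. Many of these values repeat the main fit. A fit of a pair of groups does not change when a tumor of another group is left out or averaged. Replicate numbers did not pair the tumors: arrays of the same number had r of -0.27 to 0.27 (median 0.04 over 24 pairs), 1 of 16 arrays was closest to its own number, and the fit with the replicate block called 0 members in every comparison.

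Among the alternative values for named genes, 415 kept their direction and their side of the threshold. The 2 exceptions were both in anti-CD40 Ab against control without anti-CD40 Ab replicate 3, where Kif20a was at -0.0558 and Cdc25c at -0.0475, within leave-one-out ranges of -0.06 to 0.40 and -0.05 to 0.42. The cause was not tested. Leaving out 1 tumor at a time moved the mean mitosis change between 0.06 and 0.34 with GEM (highest without control replicate 4), between -0.10 and 0.24 with anti-CD40 Ab (lowest without anti-CD40 Ab replicate 3, highest without control replicate 4) and between -0.18 and 0.10 with GEM/anti-CD40 Ab (highest without control replicate 4). The mean replication change moved between 0.06 and 0.18, -0.06 and 0.06, and -0.14 and 0.00 in the same 3 comparisons. Control replicate 2, anti-CD40 Ab replicate 2 and GEM/anti-CD40 Ab replicate 4, high in skin or muscle genes, were left out after seeing the data. This gave mean mitosis changes of 0.08 with GEM, 0.07 with anti-CD40 Ab and -0.21 with GEM/anti-CD40 Ab, and called 0 members. GEM replicate 4 and control replicate 4, the highest of their groups in muscle genes, were kept in this setting. With 4 arrays a group, a p that misses the threshold does not show that groups were alike.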
